A study of Mus musculus with 24 samples.

Results

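A set of 9 neuronal channel genes was followed through the differentiation of mouse embryonic stem cells with and without REST: 6 calcium channel family genes (Cacna1a, Cacna1b, Cacna1e, Cacna2d1, Cacng2 and Cacng3) and 3 genes of hyperpolarization-activated channels (Hcn2, Hcn3 and Hcn4). They are a list of gene names drawn up with earlier results of these arrays known, so counts over the 9 describe them and are no independent evidence. Each gene was represented by the probe set of that single symbol with the highest mean in its value table. All 9 were measured among 19938 genes on 18 Affymetrix arrays, and 8 of them, without Hcn4, among 18194 genes on 6 arrays of another platform. The 18 arrays came from Black Agouti 129 cells at 3 stages, embryonic stem cells (ES), neuronal progenitors (NP) and terminal neurons (TN), with 3 arrays per group. At ES and NP the groups were labelled RESTko, the REST knock-out, and RESTwt, the wildtype, whereas at TN the control of RESTko was RESThet, the heterozygous knock-out. The 6 other arrays, 2 per stage, held wildtype cells whose strain is given as mixed 129Sv-C57Bl/6. The labels name no treatment for any group. The replicates are labelled biological, but nothing says whether they were separate cultures or clones, so p-values measure only the spread between these arrays.

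Voltage-gated calcium channels open on depolarization and admit the calcium that triggers transmitter release and calcium-dependent signalling. Their pore is an alpha-1 subunit: Cacna1a encodes that of P/Q-type channels, Cacna1b that of N-type channels and Cacna1e that of R-type channels, while Cacna2d1 encodes an alpha-2-delta subunit that brings channels to the surface and binds gabapentin. Cacng2 (stargazin) and Cacng3 were named as calcium channel gamma subunits, but act mainly as TARPs, transmembrane partners that traffic and gate AMPA-type glutamate receptors. HCN channels open on hyperpolarization and carry the pacemaker current of neurons and heart, and Hcn4 is the main form of the sinus node. REST is a repressor that binds the RE1 element and keeps neuronal genes low outside neurons.

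Values are log2 probe-set signals, 1 unit being a 2-fold change, and differences carry the standard error (SE) of limma. A gene was called where its Benjamini-Hochberg adjusted p, taken over every gene in that comparison, lay below 0.05. Array medians on the 18 arrays lay between 5.02 and 5.49, and the correlation between arrays of a group, across genes, ran from 0.993 to 0.998 (Pearson's r; genes are not independent replicates). Brightness depends on the probes, so levels of different genes were not set against each other, beyond saying where a signal lay low among all genes. The Rest probe set followed the labels only at ES, where it fell by 0.36 in the arrays labelled RESTko (SE 0.07, adjusted p = 0.00234, limma). At NP its means were 7.47 and 7.48, and at TN it was the RESTko arrays that were higher, at 7.37 against 7.03 (adjusted p = 0.0187, limma). Every genotype direction below therefore rests on the labels. Stage markers followed the stage labels: the mean of 8 ES markers lay between 10.46 and 10.80 at ES and at most 7.24 on every later array, and the mean of 8 neuron markers rose from at most 5.95 at ES to at least 10.43 at TN.

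Start-site sequences were looked at because REST acts through DNA. The RefSeq table (GRCm38.p6) gives a window of 250 bases before to 50 bases after each start, and the windows of 6 members were used. The 250 bases before the start are printed 5′ to 3′ for 3 members that were higher in RESTko progenitors (Cacna1b, Hcn2, Cacng2). Capitals mark each CpG dinucleotide.

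Cacna1b, chr2:24763153-24763402, minus strand: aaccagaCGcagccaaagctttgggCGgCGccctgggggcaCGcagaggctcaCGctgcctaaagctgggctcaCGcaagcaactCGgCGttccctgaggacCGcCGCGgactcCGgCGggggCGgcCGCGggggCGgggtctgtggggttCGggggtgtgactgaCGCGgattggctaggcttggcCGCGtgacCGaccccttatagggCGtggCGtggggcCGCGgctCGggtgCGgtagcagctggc

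Hcn2, chr10:79716384-79716633, plus strand: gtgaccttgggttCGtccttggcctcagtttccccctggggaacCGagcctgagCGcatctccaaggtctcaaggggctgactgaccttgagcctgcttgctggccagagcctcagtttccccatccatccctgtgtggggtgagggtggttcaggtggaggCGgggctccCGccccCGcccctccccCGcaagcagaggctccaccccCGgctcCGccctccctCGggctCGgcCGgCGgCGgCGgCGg

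Cacng2, chr15:78119281-78119530, minus strand: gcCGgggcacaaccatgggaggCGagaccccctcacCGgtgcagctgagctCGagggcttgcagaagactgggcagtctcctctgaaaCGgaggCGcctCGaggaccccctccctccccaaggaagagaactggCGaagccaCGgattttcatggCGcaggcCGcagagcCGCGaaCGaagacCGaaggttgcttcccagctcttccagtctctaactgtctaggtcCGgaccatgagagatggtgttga

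The window before Cacna1b held 29 CpG, and those before Hcn2 and Cacng2 16 each, against a median of 6 over 32851 windows of the table. Of all windows, 93.2% held fewer CpG than that of Cacna1b and 74.6% fewer than those of Hcn2 and Cacng2. Windows not printed held 36 CpG (Cacna2d1), 25 (Hcn4) and 6 (Cacna1e). The RE1 core motifs CAGCACC and GGACAG, which do not overlap each other, were searched on both strands of the full windows. Neither was found in any of the 6, while 7.14% of all windows hold the first and 22.2% the second. No match says only that these letters are not in these windows.

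The first comparison asked which channel genes differed between RESTko and RESTwt in pluripotent cells. At ES, RESTko arrays had 3 of the 9 genes higher and 0 lower, where 9.24% of all genes were called in either direction. The 3 were the N-type pore gene Cacna1b and the pacemaker genes Hcn3 and Hcn2. The median difference of the 9 was 0.02, against -0.03 over all genes. The mean of the neuron markers was 5.78 to 5.95 in RESTko and 5.35 to 5.39 in RESTwt, with 4 of the 8 markers called higher and 0 lower. The mean of the 8 ES markers was lower in RESTko, at 10.46 to 10.57 against 10.74 to 10.80, with 2 called lower and 0 higher. The mean of 6 endoderm markers was 5.29 to 5.42 in RESTko and 5.01 to 5.19 in RESTwt, with 1 called higher and 0 lower. In bulk RNA a change in the share of neurons and a change in transcript per cell cannot be told apart.

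Cacna1b gave 6.24, 6.20 and 6.30 on the RESTko arrays a, b and c and 5.02, 5.0 and 5.04 on the RESTwt arrays. The groups stood well apart with almost no spread within them, a 2.34-fold difference (1.22, SE 0.16, adjusted p = 6.25e-05, limma). Hcn3 gave 6.57, 6.48 and 6.63 in RESTko and 5.47, 5.34 and 5.69 in RESTwt, again without overlap and 2.08-fold apart (1.06, SE 0.14, adjusted p = 5.98e-05, limma). For Hcn2 the RESTko arrays read 6.75, 6.69 and 6.71 and the RESTwt arrays 5.99, 6.06 and 6.23, a smaller 1.54-fold step (0.62, SE 0.12, adjusted p = 0.00231, limma). All 3 calls held when any of the 6 ES arrays was left out, with adjusted p up to 0.0137 (Hcn2 without RESTwt array a).

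The alpha-2-delta gene Cacna2d1 lay higher in RESTko without being called. Its RESTko arrays read 5.87, 5.62 and 6.02 and its RESTwt arrays 5.49, 5.24 and 5.14 (0.55, SE 0.24, adjusted p = 0.184, limma). The lowest RESTko array was thus above the highest RESTwt array. The SE pools the spread of all groups, and the SD was 0.72 in RESThet neurons, against 0.14 to 0.26 in the other groups. It was called in a fit of the ES arrays alone (adjusted p = 0.027), but in none of the 6 fits with 1 ES array left out (up to 0.435). The remaining 5 genes gave overlapping groups. Their differences were -0.12 for Cacna1a (95% interval -0.32 to 0.08), -0.15 for Cacna1e (-0.35 to 0.04), -0.08 for Cacng2 (-0.38 to 0.21), 0.02 for Cacng3 (-0.34 to 0.38) and -0.19 for Hcn4 (-0.44 to 0.06). These intervals end below the differences of Cacna1b and Hcn3. The ES signals of Cacng3 were low, at the 14.1 and 15.4 percentiles of all genes (RESTwt and RESTko). Those of Cacna1e (28 and 26.6) and Hcn4 (31.3 and 29.4) were low too. With no detection call they were not shown to lie above background, so the intervals of these genes bound the signal and not the transcript.

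**Figure D1:**
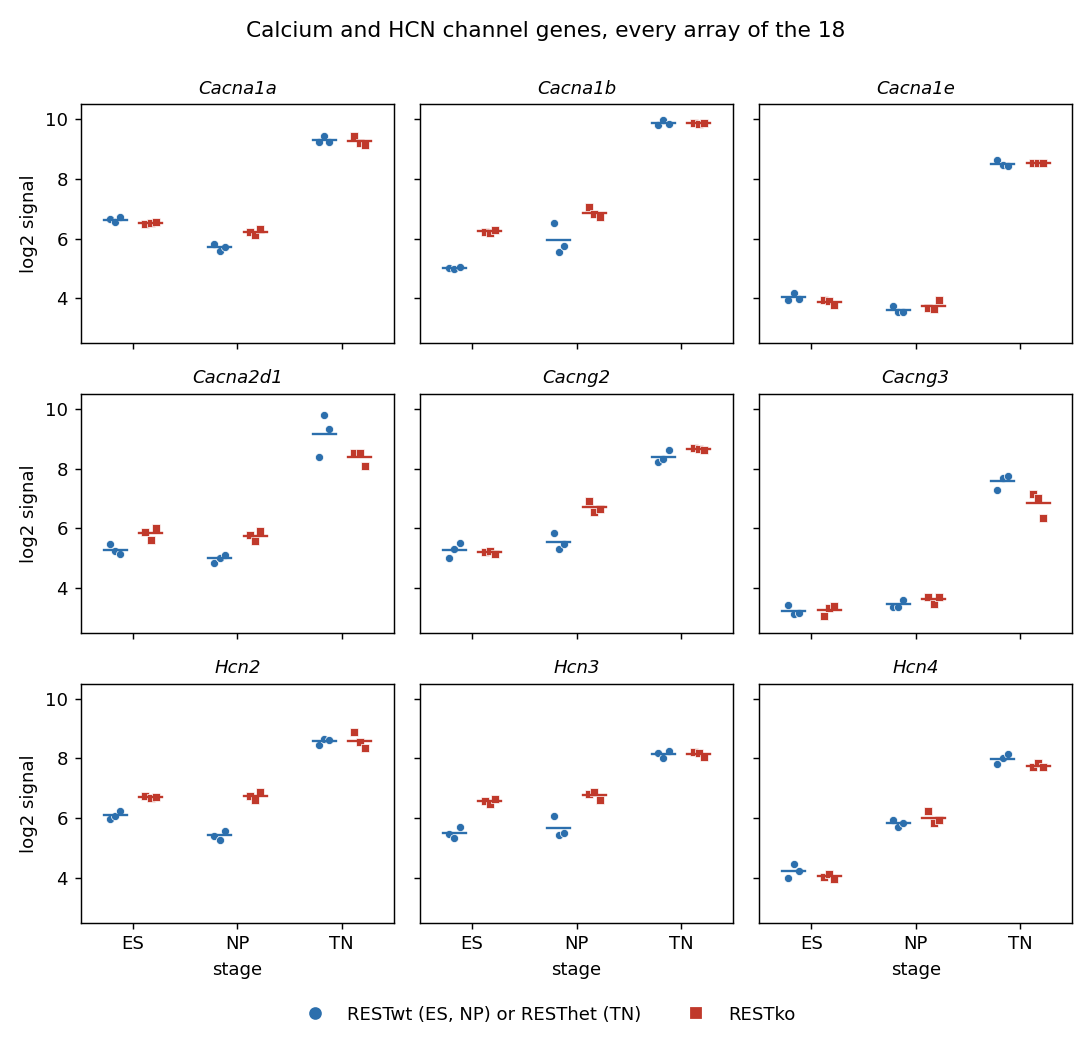
Log2 signal of the 9 genes on each of the 18 arrays by stage, with circles for RESTwt (ES, NP) or RESThet (TN), squares for RESTko and bars for group means. Cacna1b, Hcn2 and Hcn3 stand apart by genotype at ES and NP, and at TN all 9 genes lie above their earlier levels.

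In progenitors 5 of 9 genes were higher in RESTko and 0 were lower, against 8.03% of all genes called. Hcn2, Hcn3 and Cacna1b were joined by Cacng2 and by the P/Q-type gene Cacna1a. The median of the 9 was 0.77, against 0.01 over all genes.

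Hcn2 had the largest difference of the set. It read 6.75, 6.61 and 6.88 in RESTko and 5.41, 5.27 and 5.59 in RESTwt, with more than 1 log2 unit between the groups and a 2.5-fold change (1.32, SE 0.12, adjusted p = 1.71e-06, limma). Cacng2, the AMPA receptor partner, followed with 6.92, 6.54 and 6.67 against 5.84, 5.30 and 5.49, 2.24-fold higher (1.17, SE 0.14, adjusted p = 4.71e-05, limma). Hcn3, also higher at ES, read 6.83, 6.87 and 6.62 against 6.09, 5.43 and 5.51, 2.14-fold higher (1.10, SE 0.14, adjusted p = 6.59e-05, limma).

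Cacna1b read 7.07, 6.82 and 6.72 in RESTko and 6.52, 5.57 and 5.76 in RESTwt. RESTwt array a stood close to the RESTko arrays, and the difference was 1.89-fold (0.92, SE 0.16, adjusted p = 0.00133, limma). In a fit of the NP arrays alone Cacna1b was not called (adjusted p = 0.0768). RESTwt array a was also the highest of its group for Hcn3, Cacng2 and the mean of the neuron markers. RESTko array a was likewise the highest of its own group for Cacna1b, Cacng2 and the mean of the neuron markers, but not for Hcn3. That marker mean was 7.75 on RESTwt array a, 7.13 on b and 7.59 on c, and 8.21, 7.87 and 7.87 on the RESTko arrays.

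Cacna1a read 6.21, 6.14 and 6.34 in RESTko and 5.83, 5.58 and 5.74 in RESTwt, the smallest of the called differences (1.43-fold; 0.51, SE 0.09, adjusted p = 0.00213, limma). The gene lies on chromosome 8, where the median difference over 955 genes was -0.19 at NP and -0.17 at ES, against 0.01 and -0.02 over the genes of all other chromosomes. Relative to the median of its own chromosome, Cacna1a was 0.70 higher at NP and 0.05 higher at ES. The chromosomes of the other 8 genes had medians between -0.04 and 0.03 at these stages.

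Cacna2d1 missed the threshold at NP although its groups did not overlap (5.78, 5.58 and 5.93 against 4.84, 5.01 and 5.13; 0.77, SE 0.24, adjusted p = 0.0565). It passed when the dimmest 30% of genes were left out (adjusted p = 0.0465), with an intensity trend (0.0393) or with the NP arrays alone (0.0147). Cacna2d1 was not called in any of the 6 fits with 1 NP array left out (adjusted p up to 0.163). Its other probe set was not called either (0.49, adjusted p = 0.439). Cacna1e (0.14, 95% interval -0.06 to 0.33), Cacng3 (0.17, -0.19 to 0.53) and Hcn4 (0.18, -0.07 to 0.43) were not called, and their intervals end below the differences of Hcn2, Hcn3 and Cacng2. The NP signals of Cacna1e (22.3 and 24.8 percentiles of all genes, RESTwt and RESTko) and Cacng3 (19.9 and 22.8) were low. With no detection call they were not shown to lie above background, so the intervals of these genes bound the signal and not the transcript. Leaving out any single NP array kept the 5 calls, with adjusted p up to 0.0161 (Cacna1a without RESTwt array b).

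Neuron markers moved with these genes at NP too: 4 of 8 were higher in RESTko and 0 lower, and their mean ranged from 7.87 to 8.21 in RESTko and from 7.13 to 7.75 in RESTwt. Of 6 fibroblast markers, 3 were lower in RESTko at NP, with means of 5.32 to 5.73 against 5.78 to 6.46. The part of these cell types in the channel results at ES and NP was not tested.

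**Figure D2:**
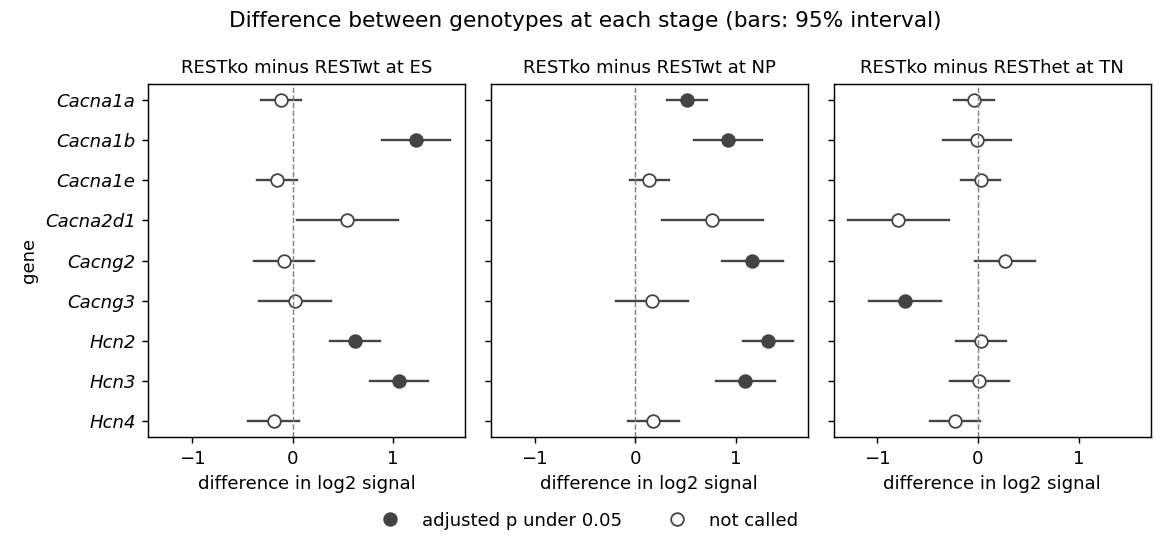
Difference in log2 signal between genotypes for each gene at ES, NP and TN, with 95% intervals from limma as bars and filled points for genes called at an adjusted p under 0.05. Called differences lie above 0 at ES (3 genes) and NP (5 genes), and the single call at TN, Cacng3, lies below 0.

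The effect of the genotype itself differed between the stages for some members. It was more positive at NP than at ES for 3 of 9 genes, against 4.87% of all genes called in either direction: Cacng2 (by 1.25, SE 0.20, adjusted p = 0.00125), Hcn2 (by 0.70, SE 0.17, adjusted p = 0.0218) and Cacna1a (by 0.63, SE 0.13, adjusted p = 0.00859, limma). For Hcn3 the change was 0.04 (95% interval -0.37 to 0.44) and for Cacna1b -0.30 (-0.78 to 0.17), and neither was called. The call of Hcn2 ended with every probe set tested (adjusted p = 0.0531). Leaving out single arrays ended it in 4 cases, with adjusted p between 0.0507 (without ES RESTko array b) and 0.0687 (without ES RESTwt array c); it was 0.057 without NP RESTko array c and 0.0605 without NP RESTwt array b.

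Cacng2 has 2 single-symbol probe sets on the 18 arrays, and both gave the same order of groups. On the set with the higher mean the RESTwt cells went from 5.29 ± 0.26 at ES to 5.54 ± 0.28 at NP and RESTko cells from 5.20 ± 0.06 to 6.71 ± 0.19 (SD, n = 3 each). On the other set RESTwt cells went from 3.83 ± 0.10 to 4.81 ± 0.22 and RESTko cells from 3.74 ± 0.16 to 6.69 ± 0.19. The genotype difference at NP was larger there, 1.88 (SE 0.13) against 1.17 (SE 0.15), in a fit of every probe set. The step between ES and NP in RESTwt cells was called on the other set (0.98, adjusted p = 9.91e-06, limma) and not on the first (0.26, adjusted p = 0.154). At ES the genotypes differed by -0.09 on the one and -0.08 on the other set. Cacna2d1 also has 2 probe sets, whose differences were 0.55 and 0.48 at ES, 0.77 and 0.49 at NP and -0.79 and -0.85 at TN, none called.

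**Figure D3:**
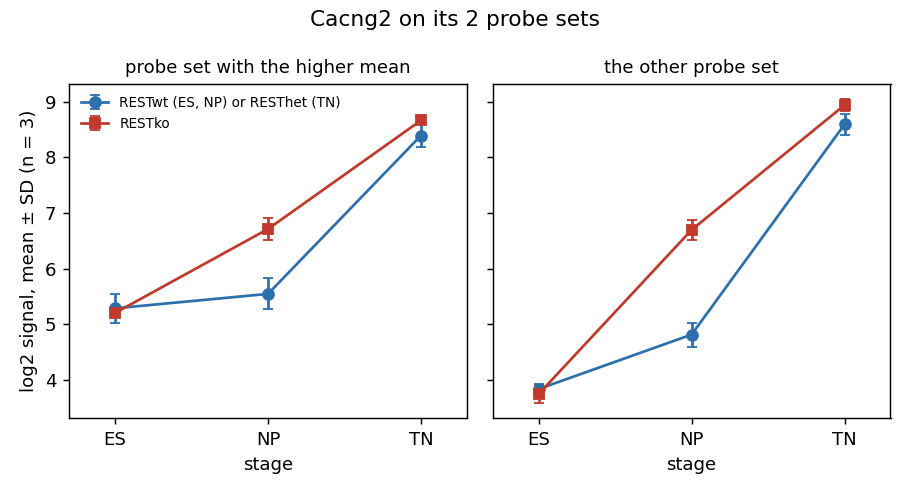
Mean log2 signal of Cacng2 ± SD (n = 3 arrays) by stage on each of its 2 probe sets, with circles for RESTwt (ES, NP) or RESThet (TN) and squares for RESTko. On both sets the genotypes coincide at ES and are farthest apart at NP, by 1.17 and 1.88.

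The third comparison asked which differences persist in neurons. At TN, 1 of 9 genes was called, Cacng3, which was lower in the arrays labelled RESTko, and 1.16% of all genes were called. The 5 genes raised in progenitors now differed by -0.04 (Cacna1a), -0.01 (Cacna1b), 0.27 (Cacng2), 0.03 (Hcn2) and 0.01 (Hcn3). The 95% intervals of Cacna1a (-0.24 to 0.16), Cacna1b (-0.35 to 0.32), Hcn2 (-0.22 to 0.28) and Hcn3 (-0.28 to 0.30) end below their NP differences. Cacng2 read 8.68, 8.67 and 8.63 in RESTko against 8.23, 8.32 and 8.62 in RESThet, nearly touching groups that were not called (adjusted p = 0.489, 95% interval -0.03 to 0.57).

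Cacng3, the second AMPA receptor partner, read 7.16, 7.03 and 6.37 in RESTko and 7.30, 7.70 and 7.75 in RESThet, 1.66-fold lower in RESTko (-0.73, SE 0.17, adjusted p = 0.045, limma). The groups did not overlap but came within 0.14 of each other, and RESTko array c lay far below the rest. The call ended without RESTko array b (adjusted p = 0.0559) or c (0.177) and without RESThet array b (0.123) or c (0.177), and it also ended in a fit of the TN arrays alone (0.288). Cacna2d1 read 8.54, 8.52 and 8.09 against 8.39, 9.79 and 9.34, where RESThet array a lay among the RESTko arrays (-0.79, SE 0.24, adjusted p = 0.14). Without that array the difference was -1.19 and was called (adjusted p = 0.00165). Cacna1e (0.02, 95% interval -0.17 to 0.22) and Hcn4 (-0.23, -0.48 to 0.02) were not called.

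The mean of the neuron markers varied over the same TN arrays. It was lowest on RESTko array c (10.43), at 10.53 to 10.56 on RESThet array a and RESTko arrays a and b, and highest on RESThet arrays b (10.70) and c (10.74). RESTko array c was also the lowest for Cacng3 and Cacna2d1, and RESThet arrays b and c were the highest for both. Of the 8 markers, 1 was called lower in RESTko and 0 higher; the part of neuronal content in these 2 genes was not tested.

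Between NP and TN the effect of the genotype became more negative for 7 of 9 genes, against 3.91% of all genes called in either direction. The change was -1.56 for Cacna2d1 (SE 0.34), -1.29 for Hcn2 (0.17), -1.08 for Hcn3 (0.19), -0.93 for Cacna1b (0.23), -0.90 for Cacng3 (0.24), -0.89 for Cacng2 (0.20) and -0.56 for Cacna1a (0.13). Hcn4 (-0.41, SE 0.17, adjusted p = 0.207) and Cacna1e (-0.11, SE 0.13) were not called. The control was RESTwt at NP and RESThet at TN, so the stage and the control's genotype cannot be told apart in this comparison. The titles also number the ES and NP arrays as 1 and the TN arrays as 2, a division whose meaning is not stated. With every probe set tested, Cacna1b (adjusted p = 0.0644) and Cacng3 (0.0947) were lost, and Cacng3 was also lost with quantile normalization (0.0564) and array weights (0.0772). The other probe set of Cacna2d1 gave -1.34 in the fit of every probe set and was not called (adjusted p = 0.0923). The count fell to 4 in fits of the 4 groups alone, and to 3 without NP RESTwt array b and 4 without NP RESTko array a, TN RESTko array c, TN RESThet array b or TN RESThet array c.

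All 9 genes rose between progenitors and neurons, in RESTko and from RESTwt progenitors to RESThet neurons, called REST-carrying cells here. Calls in either direction were common in these steps, at 71.0% and 73.1% of all genes. In RESTko 8328 genes rose and 5819 fell, and in REST-carrying cells 8616 rose and 5954 fell. The median over the 9 genes was 2.62 in RESTko and 3.59 in REST-carrying cells, against 0.13 and 0.14 over all genes. Cacna1e, the R-type gene, went from 3.61 ± 0.10 to 8.52 ± 0.10 in REST-carrying cells (29.9-fold) and from 3.75 ± 0.17 to 8.54 ± 0.01 in RESTko (27.7-fold, SD, n = 3 each). Cacng3 rose 17.4-fold in REST-carrying and 9.36-fold in RESTko cells. At NP both genes were dim, Cacna1e at the 22.3 and 24.8 percentiles of all genes and Cacng3 at 19.9 and 22.8 (RESTwt and RESTko), and with no detection call their folds rest on signals that were not shown to lie above background. Cacna1b rose 15.3-fold and 8.0-fold, and Cacna1a 12.03-fold and 8.18-fold. The HCN genes rose least in RESTko: Hcn2 3.62-fold, Hcn4 3.37-fold and Hcn3 2.61-fold, against 8.85-fold, 4.48-fold and 5.52-fold in REST-carrying cells. Markers of other cells rose as well: the mean of the 6 fibroblast markers went from between 5.32 and 6.46 at NP to between 9.15 and 9.65 at TN, and that of 6 astrocyte markers from between 5.003 and 5.07 to between 6.02 and 6.77. Their part in the rises was not tested. The difference between the 2 steps is by construction the change of the genotype effect between NP and TN given above.

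The step from ES to NP divided the set. In RESTwt cells, where 67.1% of all genes were called, Hcn4 rose 3.02-fold (from 4.23 ± 0.23 to 5.83 ± 0.12) and Cacna1b 1.90-fold, while Cacna1a fell by 0.93, Hcn2 by 0.67 and Cacna1e by 0.42. In RESTko cells, where 66.0% were called, Hcn4 rose 3.89-fold, Cacng2 2.85-fold and Cacna1b 1.54-fold, and Cacna1a fell by 0.30. Hcn2 stayed at 6.71 ± 0.03 and 6.75 ± 0.14 in RESTko (95% interval of the step -0.22 to 0.28), where RESTwt cells lost signal. Hcn4 rose in both genotypes and was not called between genotypes at any stage. At ES its signals lay at the 31.3 (RESTwt) and 29.4 (RESTko) percentiles of all genes. With no detection call these ES signals were not shown to lie above background, and the folds of Hcn4 rest on them. Because Hcn4 also marks pacemaker heart cells, 6 cardiac markers were read beside it. These markers are general heart genes and none was chosen for pacemaker cells, so the part of pacemaker cells was not tested. At ES their mean lay between 5.04 and 5.34, at NP between 4.88 and 5.16, and at TN between 4.68 and 4.91. In the step from ES to NP 1 of them was called higher and 3 lower in RESTwt, and 0 higher and 1 lower in RESTko.

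The wildtype course in the mixed strain gave a second view of the stages on another array design. All 8 measured members rose between NP and TN on their brightest probe set, where 50.8% of all genes were called, 3954 of them higher and 5288 lower, with a median rise of 3.23 against -0.09 over all genes. Cacna1b rose most, from 3.78 and 4.28 at NP to 9.31 and 9.45 at TN (40.8-fold, adjusted p = 6.55e-08, limma), and its 4 probe sets all rose, by 3.66 to 6.30. Cacng2 went from 4.30 and 3.99 to 8.33 and 8.19 (17.4-fold), and Hcn3 from 5.67 and 5.81 to 9.11 and 9.31 (11.1-fold). Hcn2 had the smallest step, from 4.37 and 4.04 to 5.14 and 5.23 (1.97-fold, adjusted p = 0.000836, limma). At NP the means of Cacna1b, Cacng2 and Hcn2 lay at the 39.7, 40.9 and 41.5 percentiles of all genes. With no detection call, these NP signals were not shown to lie above background, and the folds rest on them. Probe sets mattered here: of 4 for Cacna1a, 3 rose by 0.83 to 2.88 and 1 gave -0.25 (adjusted p = 0.2), and of 3 for Cacng2 the steps were 4.56, 4.12 and 0.49. Of 5 probe sets for Cacna2d1, 2 were called higher (3.15 and 1.39) and 3 were not called (0.43, 0.11 and -0.10). Of 2 for Cacna1e, 1 rose by 3.32 and 1 gave 0.08 (adjusted p = 0.764).

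**Figure D4:**
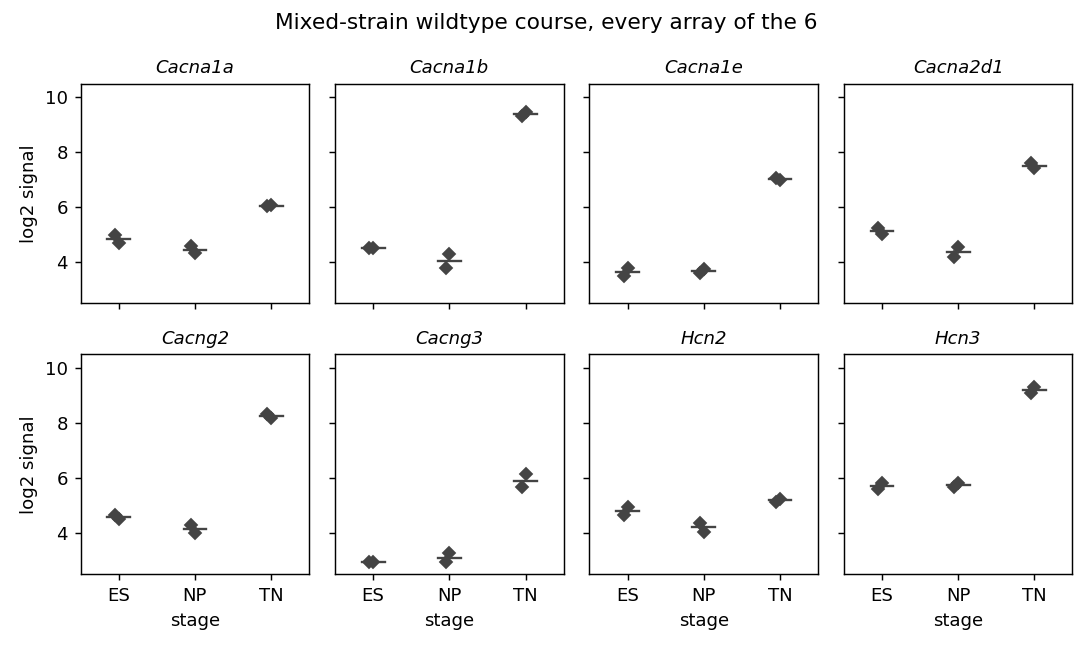
Log2 signal of the 8 measured genes on each of the 6 arrays of the mixed-strain wildtype course by stage, with bars for the mean of 2 arrays. Every gene is highest at TN, and Hcn2 has the smallest rise, 0.98 from NP.

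Between ES and NP in that course, 3 of 8 members fell and 0 rose, where 38.9% of all genes were called: Cacna2d1 (by 0.77, adjusted p = 0.00531), Hcn2 (by 0.61, adjusted p = 0.0167) and Cacng2 (by 0.43, adjusted p = 0.0489, limma). Hcn2 thus fell in the wildtype cells of both strains. With 2 arrays a stage these calls were fragile. Without ES array a, Cacna2d1 (adjusted p = 0.0526) and Cacng2 (0.228) were lost. Without ES array b, Hcn2 (0.13) and Cacng2 (0.0987) were lost. Without NP array b, Hcn2 (0.124) and Cacng2 (0.2925) were lost. Taking the mean over a gene's probe sets ended the calls of Cacng2 (-0.09, adjusted p = 0.626) and Cacna2d1 (-0.29, adjusted p = 0.0568), and made calls of Cacna1a (-0.43, adjusted p = 0.0191) and Cacna1b (-0.53, adjusted p = 0.0178). Cacna1b gave -0.49 in this step (adjusted p = 0.0577), while it rose by 0.93 in RESTwt cells of the other strain; platform and strain differ together, so the steps were not tested against each other.

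The rest of the family was read from a list. Of 21 further calcium channel and HCN genes, 18 were measured on the 18 arrays, all of them calcium channel family genes and none an HCN gene. At ES limma called 0 of them, and 0 had an unadjusted p under 0.05. At NP the T-type pore gene Cacna1h was the 1 called, higher in RESTko at 7.11 against 6.38 (1.66-fold; 0.73, SE 0.15, adjusted p = 0.00479, limma). At TN 0 were called, with 1 at an unadjusted p under 0.05. Their median differences were -0.05, 0.12 and -0.03 at the 3 stages. The shares of all genes called between genotypes were 9.24% at ES, 8.03% at NP and 1.16% at TN. Of the 18, 16 rose and 2 fell between NP RESTwt and TN RESThet. In that step 73.1% of all genes were called, 8616 higher and 5954 lower.

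Partners of these channels (release-site, trafficking and AMPA receptor genes) were also listed. Of 23, 21 were measured, and at ES 4 rose and 1 fell in RESTko, where 9.24% of all genes were called in either direction. The active-zone gene Rims2, whose protein tethers calcium channels at release sites, rose by 0.70 and its relative Rims1 fell by 0.46 (adjusted p = 0.0173). Pex5l, which encodes the HCN trafficking subunit TRIP8b, rose by 0.52, and the AMPA receptor subunit genes Gria3 and Gria4 by 0.59 and 0.52. At NP 9 rose and 0 fell, where 8.03% of all genes were called. Gria2, the subunit that makes AMPA receptors calcium-impermeable, rose by 1.31 (adjusted p = 0.00296), beside its TARP gene Cacng2. Rims2 rose by 1.12, Cabp1, a calcium-binding modulator of calcium channels, by 1.04, the AMPA receptor partner Cnih2 by 0.81 and Rem2, a GTPase that inhibits calcium channels, by 0.67. The scaffold genes Bsn (0.63) and Dlg4 (0.62), and Pex5l (0.40), also rose. At TN limma called 0 of the 21, with 1 at an unadjusted p under 0.05. Of all genes 1.16% were called there, so a count of 0 lies near that share. These lists were drawn up with results of these arrays known, and the counts describe them only.

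Within the set, Hcn2 and Hcn3 had the most alike profiles over the 18 arrays. The root-mean-square distance between their profiles, each centred on its own mean, was 0.35 log2 units, and the farthest pair, Cacna1e and Hcn3, lay 1.37 apart. Over all genes, the nearest profile to Cacna1a was that of Syt3 (0.15), to Cacna1b that of Kif1a (0.27), to Cacna1e that of Ablim3 (0.15) and to Cacna2d1 that of C1ql3 (0.34). The nearest to Cacng2 was Csdc2 (0.23), to Cacng3 Tlcd4 (0.26), to Hcn2 Sult4a1 (0.28), to Hcn3 Tcerg1l (0.27) and to Hcn4 Pde10a (0.16). The median distance of a gene from these members ranged from 1.07 (Hcn3) to 2.19 (Cacna1e). The arrays share the 3 stages, so genes with like steps between stages come out as near.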

How the data were processed

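The deposited values are log2 probe-set signals, 1 table for 18 arrays and 1 for 6, per the file headers and their range. The submitters' processing notes name oligo 1.14.0; for background correction, summarization and normalization the method is not given in the sources used here. Total RNA was extracted with TRIzol and RNeasy columns, per the labels' protocols. Symbols came from GEO's platform annotation, updated by gene number to GRCm38.p6. Of 35556 probe sets on the 18 arrays, 21789 had a single symbol, 1621 several and 12146 none; of 45101 on the 6 arrays, 34958 had one. A gene took its probe set with the highest mean.

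All genes of a platform were fitted together with lmFit and eBayes (limma 3.58.1, R 4.3.3), 1 mean per group. Two-sided p-values were adjusted after Benjamini and Hochberg across every gene in the comparison. The platforms were never combined. The fit was tested on simulated data. There is no read depth, and precision is limited by the number of arrays; the median SE of a difference at NP was 0.10. The replicate letters were not used as a block: the deviations of same-letter arrays from their group means correlated with r from -0.14 to 0.40, below 0.1 in at least 1 pair at each stage. At NP the r was 0.399 for a, 0.309 for b and 0.007 for c, while pairs of different letters gave -0.355 to 0.113. A pairing by letter at NP is thus not excluded, and the replicate block, run as an alternative, left 5 calls there.

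Named genes were the 9 members, Rest, called genes of the 2 lists of relatives and partners (up to 8 per list and comparison, by size of the difference), and the nearest profile of each member (predicted genes and small RNAs left out). The members and lists were chosen with earlier results of these data known. Alternatives were a replicate block, the compared groups alone, omission of dim genes, the mean over probe sets, every probe set, quantile normalization, array weights, an intensity trend, and each array left out. Start-site windows of 3 members are not reported here.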

Additional observations from a re-analysis of the deposited data

Results flagged for a closer look

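The following effects of the genotype differed between stages by a test of the difference itself (limma, adjusted over all genes; all are given in log2 units). From ES to NP the difference between RESTko and RESTwt grew by 1.25 for Cacng2 (adjusted p = 0.00125), by 0.70 for Hcn2 (0.0218) and by 0.63 for Cacna1a (0.00859).

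From NP to TN the effect changed by -1.56 for Cacna2d1 (adjusted p = 0.0135), -1.29 for Hcn2 (0.000246), -1.08 for Hcn3 (0.00387), -0.93 for Cacna1b (0.0272), -0.90 for Cacng3 (0.0449), -0.89 for Cacng2 (0.0177) and -0.56 for Cacna1a (0.0252). Single arrays decided several of these calls. Cacng3 was lost when 1 of 8 arrays was omitted (adjusted p from 0.053 without NP RESTko array b to 0.111 without TN RESThet array c) and Cacna1b when 1 of 7 was (0.05245 without TN RESThet array c to 0.0748 without NP RESTko array a). Cacna1a was lost for 5 (0.0598 without TN RESThet array b to 0.0707 without NP RESTwt array b) and Cacng2 for 3 (0.0505 without NP RESTwt array b to 0.052 without TN RESThet array c). Hcn2, Hcn3 and Cacna2d1 were called in all 12 such fits. The other probe set of Cacna2d1 gave -1.34 and was not called (adjusted p = 0.0923, limma over every probe set).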

How the results depend on the processing

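At ES (3 genes) and NP (5 genes) the count of members called stayed within 1.5 times of its value under all alternatives and all single arrays left out, as did the steps between NP and TN. At TN the single call (Cacng3) became 0 with a replicate block (adjusted p = 0.0719), with the compared groups alone, with every probe set tested (0.0796), with quantile normalization (0.0622) and with array weights (0.0656), and ranged from 0 to 2 with single arrays left out. For the change of the genotype effect between NP and TN the count of 7 became 4 with the compared groups alone and ranged from 3 to 7 with single arrays left out. Between ES and NP in the mixed strain the count of 3 ranged from 1 to 3 in the same way. No member's called difference changed sign under any alternative. The replicate block left 5 calls at NP and 3 at ES; it also ended the call of Cacng3 between NP and TN (adjusted p = 0.0657) and gave Cacna1b one between ES and NP in the mixed strain (0.0458). All genes called at NP numbered 549 with the NP arrays alone, against 1602, and at TN 50 with the TN arrays alone, against 231 of 19938 genes; with every probe set tested, 350 of 35556 probe sets were called at TN. At ES array weights gave 3430 against 1842. The change of the genotype effect gave 1537 against 970 genes between ES and NP with array weights, and 436 against 780 between NP and TN with the compared groups alone. Fits of the compared groups alone rest on fewer arrays; the cause of the other lost calls was not tested. At ES and NP the signals of Cacng3 lay between the 14.1 and 22.8 percentiles of all genes and those of Cacna1e between the 22.3 and 28.0, and the files used here carry no detection call.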
